A study of Homo sapiens with 12 samples.

Results

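Wild-type human neurons were examined for how many ribosomes their mRNAs carried at day in vitro 14, as measured by ribosome footprints relative to mRNA. The comparison took every transcript with 10 or more counts in each of 6 libraries, 3 of footprints and 3 of RNA, which left 13216 of the 19972 transcripts in the deposited count table. Of these, 10697 could be named from the deposited table of translational efficiencies. The neurons were made by overexpressing the transcription factor Ngn2 in H1, a line of human embryonic stem cells, and all 6 libraries were wild type at LLPH (wt/wt), per the sample titles. The study set them against neurons homozygous for an LLPH allele called Nterm, also at day 14. Per the labels' protocols, no glia were added to the cultures, and from day 5 the medium held 2 µg/mL doxycycline and 4 µM cytosine arabinoside, a drug against dividing cells. Cells were collected in cycloheximide at 100 µg/mL, a drug that halts ribosomes on the mRNA. The genotype tag of the 6 footprint samples of the series names the opposite genotype to their titles, and the titles were followed.

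A ribosome shields a short stretch of the mRNA it sits on from nuclease, and sequencing of these protected fragments gives a relative measure of the ribosomes on the mRNAs of each gene. The footprint level divided by the mRNA level is called translational efficiency. Neither level was divided by transcript length here. It varies between mRNAs because initiation differs: upstream reading frames, structured leaders, iron-responsive hairpins and oligopyrimidine starts are textbook features through which cells set how often a given mRNA is read.

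Total counts were 13155130, 16356419 and 13970957 for the footprint libraries and 24998450, 21834425 and 25089790 for the RNA libraries. Levels are given as CPM, the counts scaled to library size, after TMM scaling over the 6 libraries (scaled CPM), always in the order of replicates 1 to 3. The RNA libraries were made from polyA RNA and the footprint libraries from total RNA, per the labels. All 13 neuron markers were named and tested, with a summed RNA level of 16040 to 17400 scaled CPM, whereas 1 of 10 glial markers had a named transcript, SLC1A3, at 25.7 to 29.9 scaled CPM of RNA. A marker without a name is not thereby absent, as 2519 of the tested transcripts had no name in the files. Of the other marker lists, 6 of 10 mesenchymal markers were named, at 4532 to 5528 scaled CPM of RNA in sum, and 4 of 8 pluripotency markers, at 274.9 to 293.7. In bulk samples a cell type that holds much of an mRNA and few footprints cannot be told apart from a like state in all cells. The labels do not say that replicates came from separate cultures, so the p-values cover the spread among these libraries, which may be technical.

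Footprint and RNA levels went together across transcripts, with a Pearson correlation of log2 scaled CPM of 0.883 over 13216 transcripts, which share the same libraries and are not independent replicates. Translational efficiency itself was spread over a moderate range. On the log2 scale, where 0 is the typical transcript, the 10th percentile was -1.32, the median 0.01 and the 90th percentile 0.93, a 4.76-fold span. The tail was longer on the low side, with a 1st percentile of -3.57 against a 99th percentile of 1.56. The median standard error (SE) of a log2 value was 0.078, and the lowest correlation between replicate libraries of 1 assay was 0.994. Transcripts were called high or low when edgeR's quasi-likelihood test gave a Benjamini-Hochberg adjusted p under 0.05 and the efficiency lay more than 2-fold from 0. By that rule 1095 transcripts, 8.29% of those tested, were high and 2029, 15.4%, were low. By the adjusted p alone, 5330 (40.3%) lay above 0 and 5351 (40.5%) below it. The position of 0 rests on the scaling: with library totals in place of TMM factors the median of all transcripts moved up by 0.21, and the split became 1917 high and 1522 low. With TMM factors set within each assay it was 1913 high and 1523 low. Values below are therefore to be read relative to the other transcripts. The sources used here do not state whether both assays were counted over the same part of a transcript. If they were not, differences in length between genes would enter the values of genes and lists. Such differences could not be told apart here from differences in ribosomes per mRNA.

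**Figure D1:**
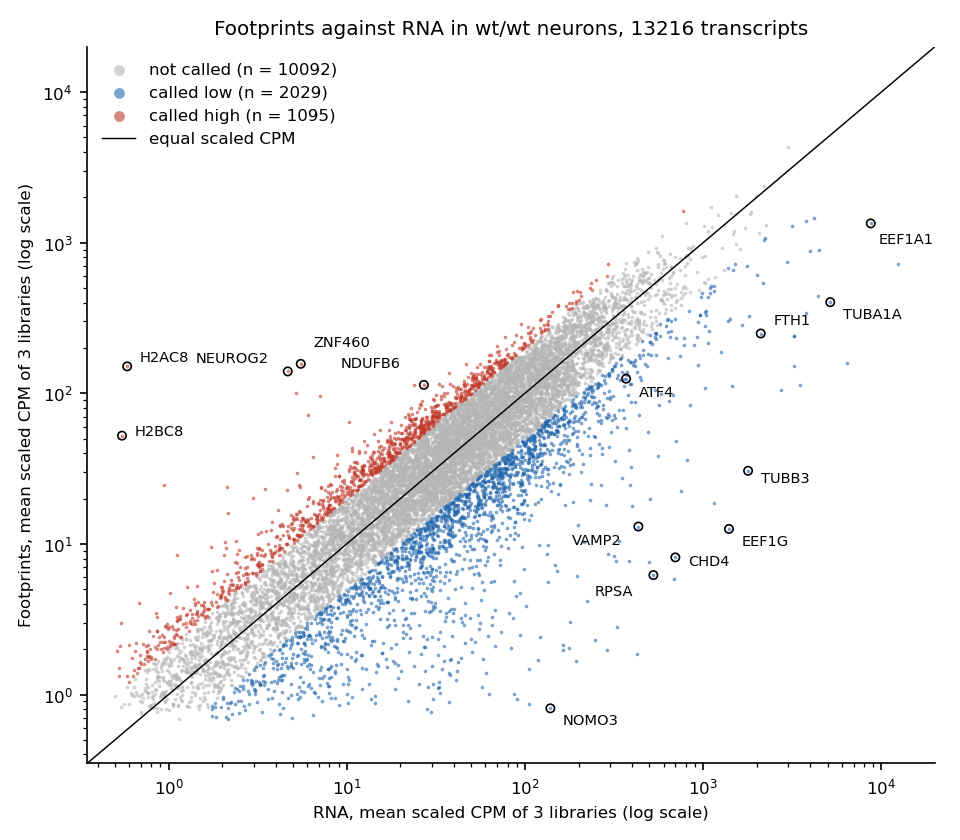
Mean scaled CPM of 3 wt/wt footprint libraries (y axis, log scale) against the mean of 3 wt/wt RNA libraries (x axis, log scale) for 13216 transcripts, each a point; red, called high (1095), blue, called low (2029), grey, not called. Most points follow the line of equal levels, with named histone genes far above it and genes such as TUBB3, EEF1G and NOMO3 far below it.

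The highest efficiencies belonged to replication-dependent histone genes, which supply the proteins that package newly copied DNA. Of the 69 such genes listed, 28 had a named transcript and 9 were tested; 7 of the 9 were called high and 1 low, against 8.29% high and 15.4% low among all transcripts. H2AC8, a gene for histone H2A, had 0.57, 0.49 and 0.70 scaled CPM of RNA but 150, 143 and 160 scaled CPM of footprints. The footprint libraries lay above every RNA library, by 253-fold (log2 7.98, SE 0.11, adjusted p = 3.53e-30 by edgeR's quasi-likelihood test). The RNA values rest on counts of 13, 10 and 16, near the minimum of the filter, so the fold is less precise than this SE. H2BC8, for histone H2B, followed at a log2 value of 6.57, then H2BC4 at 4.68, H2AC6 at 4.27 and the linker histone gene H1-2 at 3.57. H2BC5 (2.47) and H2AC25 (2.31) were also high. H2BC21 lay near the typical transcript at 0.40, and H2BC12 was called low at -2.04, with 4.9, 2.9 and 3.3 scaled CPM of footprints against 15.3, 15.6 and 14.2 of RNA.

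Replication-dependent histone mRNAs end in a stem-loop in place of a poly(A) tail, so that a high number of ribosomes per mRNA and a loss of these mRNAs from polyA RNA cannot be told apart here. The polyadenylated histone variants, which are made outside DNA replication, gave a different picture: of 10 tested, 0 were high and 1 was low, with a median of 0.13. The low one was H3-3B, which encodes histone H3.3 and had 838, 847 and 853 scaled CPM of RNA against 96.3, 72.1 and 82.4 of footprints (log2 -3.34, SE 0.09). Its partner H3-3A lay at -0.78, and the highest of the variants, H2AJ, at 0.39. Of 8 proliferation markers, 3 were named and tested, CCNB1, PCNA and TYMS, with a sum of 141 to 158 scaled CPM of RNA and 259.9 to 304 of footprints.

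The filter on counts left out further histone genes. Of 160 transcripts with 10 or more counts in every footprint library but not in every RNA library, 21 were named, and 19 of those were replication-dependent histones. H1-4 had 3247, 3967 and 3407 footprint counts against 0, 0 and 4 RNA counts, and H4C5 had 2195, 2482 and 2373 against 1, 1 and 0. Many histone genes of a cluster are close copies of each other, so the split of counts between them is uncertain. The other 2 named transcripts of this kind were NEUROG3, with 570, 636 and 661 footprint counts, and NEUROG1, with 253, 300 and 323. Both had 0 RNA counts in all 3 libraries.

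NEUROG1 and NEUROG3 are relatives of NEUROG2, the human gene for Ngn2, the proneural factor with which the neurons were made. NEUROG2 ranked below 2 histone genes alone among the named transcripts tested, with 4.18, 4.59 and 5.23 scaled CPM of RNA and 138, 129 and 153 of footprints (log2 4.90, SE 0.09, adjusted p = 6.23e-28 by edgeR's quasi-likelihood test). The sources used here state neither which part of a transcript was counted nor whether reads from the overexpressed copy were among them. The remaining genes among the 15 highest were ZNF460, a zinc finger gene, at 4.83, POMK, the kinase that phosphorylates a sugar on dystroglycan, at 3.77, PDK3, a kinase that inhibits pyruvate dehydrogenase, at 3.48, TMPPE at 2.77, the chromatin remodeller HELLS at 2.72, TCP11L2 at 2.65 and GNAT3, a taste G protein subunit, at 2.53. ZNF460 had 6.49, 5.62 and 4.45 scaled CPM of RNA and 163, 153 and 155 of footprints, so its assays did not overlap. None of the 15 had a pseudogene or readthrough record in RefSeq.

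**Figure D2:**
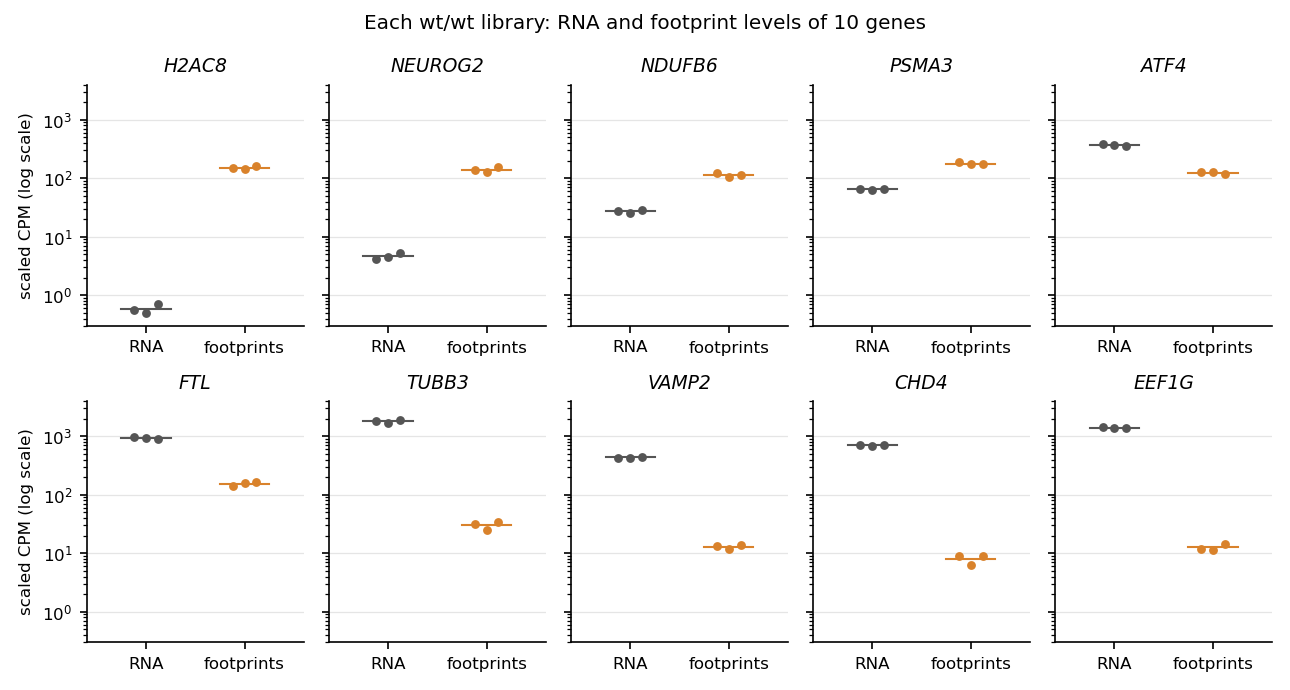
Scaled CPM (log scale) of 10 genes in each of the 3 wt/wt RNA libraries (grey) and 3 footprint libraries (orange), points for libraries and lines for means. H2AC8, NEUROG2, NDUFB6 and PSMA3 have more footprints than RNA, the other 6 genes fewer, and in none of the 10 do the assays overlap.

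Genes of the ribosome carried few footprints for their RNA. Of 47 large-subunit ribosomal protein genes (RPL), 0 were called high and 19 low, with a median log2 value of -0.80. Of 32 small-subunit genes (RPS), 1 was high and 12 were low, with a median of -0.83. Among all transcripts 8.29% were high and 15.4% low. By the adjusted p alone, 41 of 47 and 26 of 32 lay below 0, beside 40.5% of all transcripts. These mRNAs are known as TOP mRNAs: they begin with a C and a run of pyrimidines, through which growth signalling sets their translation. RPS26 was the exception at 1.03, with 212, 185 and 205 scaled CPM of footprints against 103, 95.1 and 97.2 of RNA, and it lost its call at 0.98 without footprint replicate 1. The highest RPL gene, RPL35, lay at 0.12 and did not pass the test (adjusted p = 0.077, edgeR's quasi-likelihood test).

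The 18 other TOP mRNAs tested, mostly elongation and initiation factors, gave 8 low (44.4%, beside 15.4% of all transcripts), 0 high and a median of -0.77. EEF1G, a subunit of the elongation factor that reloads EEF1A1, had 1452, 1371 and 1370 scaled CPM of RNA and 11.9, 11.4 and 14.5 of footprints, a 111-fold deficit (log2 -6.80, SE 0.11). HNRNPA1, an mRNA-binding protein of the nucleus, lay at -5.06, and EEF1A1, which brings aminoacyl-tRNA to the ribosome and was chosen after its value was seen, at -2.70. The highest were BTF3, a nascent chain binding protein, at 0.37 and EIF3H at 0.24. Together the RPL genes took 2.03% ± 0.07 (SD, n = 3) of RNA counts and 1.20% ± 0.05 of footprint counts, and the other TOP mRNAs 1.81% ± 0.04 of RNA counts and 0.58% ± 0.03 of footprint counts.

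All 47 RPL and all 32 RPS genes tested, and 16 of the 18 other TOP genes, had at least 1 pseudogene record in RefSeq, processed copies of abundant mRNAs that resemble them closely. RPSA had 74 such records and RPL36A 52. The sources used here do not state the treatment of reads matching more than 1 transcript, so single values in these lists are uncertain, and the part of such reads in the medians was not tested. Genes that stood far from the others were RPL36A at -6.24 and RPL17 at -4.49 in the large subunit and RPSA at -6.43 in the small one. RPSA had 532, 515 and 531 scaled CPM of RNA but 7.8, 4.4 and 6.5 of footprints.

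The starts of TOP genes are shown because the tract is the feature the group is known for. Each stretch runs from 5 bases before the first listed RefSeq start (GRCh38.p14) to base 20 of the transcript, in the first exon of its gene, with the C at the start and the pyrimidines that follow it in capitals. The first 4 come from genes of low efficiency and the last 4 from genes near or above the typical transcript.
RPSA (-6.43, chr3:39406715-39406739, plus strand): cctgtCTTTTCCgtgctacctgcag
RPL36A (-6.24, chrX:101391006-101391030, plus strand): ggtttCTTTCTTTCCgcgccgatag
RPS10 (-3.97, chr6:34426050-34426074, minus strand): tccttCCTTTCCagccccggtaccg
RPL26 (-3.16, chr17:8383174-8383198, minus strand): tagttCTCTTCCCTTTTgcggccat
RPL35 (0.12, chr9:124861938-124861962, minus strand): acttcCTCTTTCCCTCggagcgggc
RPS21 (0.16, chr20:62387098-62387122, plus strand): tgcttCCTTTCTCTCTCgcgcgcgg
BTF3 (0.37, chr5:73498437-73498461, plus strand): ggcctCCCTTTagctgccatcttgc
FAU (0.37, chr11:65122115-65122139, minus strand): tcttcCTCTTTCTCgactccatctt
All 8 were taken from TOP genes that have the tract, so they show its letters and are no comparison of genes with and without it.

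Initiation factors, which bring mRNA, initiator tRNA and the small subunit together, were spread around the typical transcript, with a median of 0.23. Of 32 tested, 1 was high and 5 were low (15.6%), beside 8.29% high and 15.4% low among all transcripts. EIF5A, an elongation and termination factor despite its name, lay at -2.65 and EIF2S3, the subunit of eIF2 that binds initiator tRNA, at -2.26. The highest were EIF2B3, part of the exchange factor that recharges eIF2, at 1.16 and EIF3M at 0.83. The aminoacyl-tRNA synthetases, which load tRNAs with amino acids, formed a narrow group above 0: of 20 tested, 3 were high and 0 low, and 18 lay above 0 by the adjusted p alone. Among all transcripts 40.3% lay above 0 by the adjusted p alone. The 2 synthetases that did not pass the test were QARS1 and MARS1, at 0.06 and 0.10.

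Of 11 transcripts tested from the list of upstream reading frames and stress, 5 were low and 0 high, with a median of -0.96, beside 15.4% low and 8.29% high among all transcripts. Several of them are known for inhibitory upstream reading frames. PPP1R15A, which restores eIF2 after stress, had 128, 123 and 128 scaled CPM of RNA and 35.9, 39.0 and 45.8 of footprints (log2 -1.65, SE 0.07, adjusted p = 5.62e-19 by edgeR's quasi-likelihood test). ATF4, the central factor of the integrated stress response, had 380, 368 and 362 scaled CPM of RNA and 128, 130 and 118 of footprints (log2 -1.56, SE 0.06). For both genes every footprint library lay below every RNA library. SLC35A4 lay at -1.45, DDIT3 at -1.06 and ATF5 at -1.03, and the last 2 stood within 0.1 of the threshold: DDIT3 was at -0.97 without RNA replicate 1 and ATF5 at -0.98 without footprint replicate 2. With library totals in place of TMM factors both lost the call, at -0.84 and -0.82. CEBPG (-0.96), TRIB3 (-0.62) and PPP1R15B (-0.37) lay below 0 without a call. IBTK (-0.03) and MDM2 (0.12) did not pass the test. ASNS, the asparagine synthetase that ATF4 induces, stood apart at 0.97 and crossed the threshold, at 1.0, without footprint replicate 2 and, at 1.18, with library totals.

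Genes under feedback by iron and polyamines ranged from -3.08 to 0.90. Of 16 tested, 6 were low and 0 high, beside 15.4% low and 8.29% high among all transcripts. The ferritin subunits, which store iron, were lowest: FTH1 had 2141, 2087 and 2095 scaled CPM of RNA and 242, 243 and 264 of footprints (log2 -3.08, SE 0.09), and FTL had 973, 927 and 909 of RNA and 138, 158 and 167 of footprints (log2 -2.60, SE 0.08). Both have many pseudogenes, with 27 and 20 RefSeq records. TFRC, the receptor that takes up iron, lay at 0.86, and ACO1, an aconitase that doubles as an iron sensor, at 0.90. Ferritin mRNAs are held by iron regulatory proteins at a hairpin near the start, whose loop carries the letters CAGTGN. The FTL leader is shown because it holds them, in capitals, between bases 25 and 50 after its RefSeq start.
FTL (chr19:48965333-48965358, plus strand, GRCh38.p14, first exon): gtctcttgcttcaaCAGTGTttggac
The search was for a C, any 5 bases and CAGTGN (N being any base) on the transcribed strand in the first 50 bases, a motif held by 1.68% of 27305 listed starts. FTH1 had no listed start. Among polyamine genes, OAZ1, whose product antizyme is made through a frameshift and removes ornithine decarboxylase, lay at -1.97, SAT1, which acetylates polyamines, at -1.19, AMD1 at -1.13 and OAZ2 at -1.07. With library totals SAT1 (-0.98), AMD1 (-0.92) and OAZ2 (-0.86) lost the call, and TFRC (1.07) and ACO1 (1.11) were called high. AZIN1 lay at -0.67 and ODC1, ornithine decarboxylase itself, at -0.22. SMS, SRM and SLC40A1 lay at -0.10, -0.17 and -0.35, and IREB2 and NCOA4 at 0.12 and 0.27.

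Medians of nuclear genes for mitochondria and the proteasome lay above the typical transcript. Among all transcripts 8.29% were high, 15.4% low and 40.3% above 0 by the adjusted p alone, the shares beside which the counts of these lists stand. Of 75 subunits of oxidative phosphorylation, the respiratory chain and ATP synthase, 20 were high and 8 low, with a median of 0.72, and 61 lay above 0 by the adjusted p alone. NDUFB6, a subunit of complex I, was highest: it had 27.7, 25.2 and 28.5 scaled CPM of RNA and 123, 106 and 112 of footprints (log2 2.07, SE 0.07, adjusted p = 2.28e-21 by edgeR's quasi-likelihood test). SDHB, the iron-sulphur subunit of complex II, lay at 1.58, whereas SDHA, its catalytic subunit, lay at -2.83 and UQCR11 of complex III at -5.33. Of 81 mitochondrial ribosomal proteins, 29 were high and 5 low, with a median of 0.71. MRPL39 led at 1.73 and MRPS18C followed at 1.72, and the lowest were MRPL12 and MRPL30, both at -4.72. The 26 oxidative phosphorylation genes with no copy record had a median of 0.82, with 8 high and 2 low. The 36 such mitochondrial ribosomal proteins had a median of 0.94, with 17 high and 1 low.

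All but 4 of the 34 proteasome subunits lay above 0 by the adjusted p alone, and 10 were called high and 3 low, with a median of 0.86. PSMA3, a subunit of the core ring, had 191, 172 and 172 scaled CPM of footprints against 66.3, 62.9 and 64.7 of RNA (log2 1.47, SE 0.06). PSMB3 followed at 1.41, and PSMA1 (-2.47) and PSMA6 (-1.72) were the lowest. Of the 15 proteasome genes with no copy record, 4 were high and 0 low. Proteasome genes took 0.658% ± 0.0006 (SD, n = 3) of footprint counts and 0.343% ± 0.004 of RNA counts, so the 2 assays did not overlap. Chaperones had a median of 0.57 over 31 genes, with 1 high, PDIA4 of the endoplasmic reticulum at 1.27, and 3 low. HSP90B1, also of that compartment, lay just under the threshold at 0.99 and above it, at 1.03 and 1.01, without footprint replicate 2 or RNA replicate 2. The lowest chaperones were the heat-inducible neighbours HSPA1B (-2.01) and HSPA1A (-1.96), which are close copies of each other.

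Cholesterol synthesis genes had a median of 0.49 over 26 genes. NSDHL was high at 1.12 and FDPS lay at 0.84, and CYP51A1 at -1.5 and EBP at -1.43 were called low. Of 17 glycolytic enzymes, 1 was high and 3 were low, shares near those of all transcripts (8.29% and 15.4%), with a median of 0.26. The brain isozyme of aldolase, ALDOC, was high at 1.22 and GPI lay at 0.84, whereas the muscle-type aldolase ALDOA lay at -3.20 and PGAM1 at -2.66. Of the 7 glycolytic genes with no copy record, 1 was high and 0 were low, so ALDOA and PGAM1 have such records. The part of copies in these low values was not tested. ALDOA had 400, 393 and 366 scaled CPM of RNA and 37.0, 41.2 and 47.5 of footprints.

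Among neuronal structural genes the tubulins were lowest. Of 11 tested, 6 were low and 0 high, beside 15.4% low and 8.29% high among all transcripts. Their median was -1.76, and the 4 with no copy record had a median of -2.44. TUBB3, the neuronal beta-tubulin that serves as a neuron marker, had 1802, 1701 and 1868 scaled CPM of RNA and 31.6, 25.3 and 34.9 of footprints, a 58.8-fold deficit (log2 -5.88, SE 0.11, adjusted p = 2.93e-27 by edgeR's quasi-likelihood test). TUBA1A, the main alpha-tubulin of young neurons, had 5098, 5030 and 5398 scaled CPM of RNA and 433, 335 and 442 of footprints (log2 -3.68, SE 0.13). In both genes the lowest footprint value was in replicate 2. TUBB4B (0.11) did not pass the test and TUBB6 lay at -0.43. Tubulin genes are similar in coding sequence, so the split of counts between them is uncertain. As a group they took 1.20% ± 0.03 (SD, n = 3) of RNA counts and 0.306% ± 0.027 of footprint counts.

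Neurofilaments and microtubule proteins gave 9 low and 0 high of 34, with a median of -0.40. The low share was 26.5%, beside 15.4% low and 8.29% high among all transcripts. STMN2, a stathmin of growing axons, had 2116, 2132 and 2265 scaled CPM of RNA and 558, 470 and 590 of footprints (log2 -2.01, SE 0.10). NEFL, the light neurofilament, had 2921, 2820 and 3185 of RNA and 749, 639 and 850 of footprints (log2 -2.00, SE 0.11). The upper end held ANK3, the scaffold of the axon initial segment, at 0.77 and MAP6 at 0.64. The 29 genes with no copy record had a median of -0.18.

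Genes of the synaptic vesicle and active zone lay close to typical, with a median of -0.16, 1 high and 7 low of 43. The low share, 16.3%, was near the 15.4% of all transcripts, of which 8.29% were high. VAMP2, the vesicle protein that drives fusion, was an extreme exception: 431, 428 and 442 scaled CPM of RNA against 13.4, 11.9 and 13.9 of footprints (log2 -5.06, SE 0.08, adjusted p = 1.95e-29 by edgeR's quasi-likelihood test). CPLX2, which clamps fusion, lay at -2.46. SYN2, a synapsin, was high at 1.38 and SNCB, beta-synuclein, lay at 0.81. Postsynaptic scaffolds and receptors had a median of -0.35, with 2 high and 8 low of 37. SHANK1 (-2.13) and SHANK3 (-1.72), the large scaffolds beneath glutamate receptors, were lowest. SHANK1 had 146, 143 and 160 scaled CPM of RNA and 29.6, 33.5 and 39.6 of footprints.

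Voltage-gated channels had the lowest median of the synaptic and excitability lists, -0.83, with 11 low and 0 high of 29 and none with a copy record. The low share was 37.9%, beside 15.4% low and 8.29% high among all transcripts. CACNB4, an accessory subunit of calcium channels, lay at -3.92 on small footprint counts of 15, 21 and 24. KCNQ3, a subunit of the M current that restrains firing, had 83.1, 88.2 and 88.1 scaled CPM of RNA and 9.8, 10.6 and 11.9 of footprints (log2 -3.0, SE 0.08). The highest were KCNB2 at 0.98, called high with library totals (1.19), and CACNA2D1, an auxiliary calcium channel subunit, at 0.63.

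Chromatin regulators were typical as a group, with a median of -0.13, 2 high and 8 low of 56. The low share, 14.3%, was near the 15.4% of all transcripts, of which 8.29% were high. CHD4, the ATPase of the NuRD remodelling complex, was far below the rest: 705, 688 and 705 scaled CPM of RNA against 9.1, 6.4 and 8.9 of footprints (log2 -6.44, SE 0.10). EED, a Polycomb subunit, and ARID2 were high at 1.06 and 1.04, and ARID2 lay at 0.99 without footprint replicate 1. Neuronal transcription factors had a median of -0.28, with NEUROG2 the only one of 32 called high and 6 low. ONECUT2 had 1224, 1236 and 1337 scaled CPM of RNA and 181, 190 and 196 of footprints (log2 -2.74, SE 0.08), and NFIB lay at -1.83. After NEUROG2 the highest was ISL1, a factor of motor and sensory neurons, at 0.60.

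No immediate early factor was called in either direction (0 of 14): MYC (0.96) and JUNB (0.82) lay highest and KLF6 (-0.72) and NR4A1 (-0.59) lowest. With library totals MYC (1.17) and JUNB (1.03) were called high. By the adjusted p alone, edgeR placed 4 of them above 0 and 5 below, beside 40.3% above and 40.5% below among all transcripts. RNA-binding proteins had a median of 0.26, with 1 high and 3 low of 44. Among all transcripts 8.29% were high and 15.4% low, the shares beside which the counts of this paragraph stand. PTBP2, the neuronal splicing repressor, was high at 1.6, with 244, 227 and 235 scaled CPM of footprints against 74.0, 71.4 and 86.7 of RNA. SRSF1, a splicing activator, lay at -4.57 and RBFOX2 at -1.55. Selenoproteins, in which a stop codon is read as selenocysteine, gave 1 high and 3 low of 17 with a median of -0.28, between SELENON (-1.67) and SELENOM (1.07), which lay at 0.99 without footprint replicate 3 and at 0.96 without RNA replicate 2. Zinc finger genes, those whose symbol is ZNF and a number, were the largest list: of 341 tested, 98 were low and 6 high, with a median of -0.42. ZNF417 (-4.64) and ZNF587 (-4.23) were lowest, and after ZNF460 the highest was ZNF792 at 1.22.

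**Figure D3:**
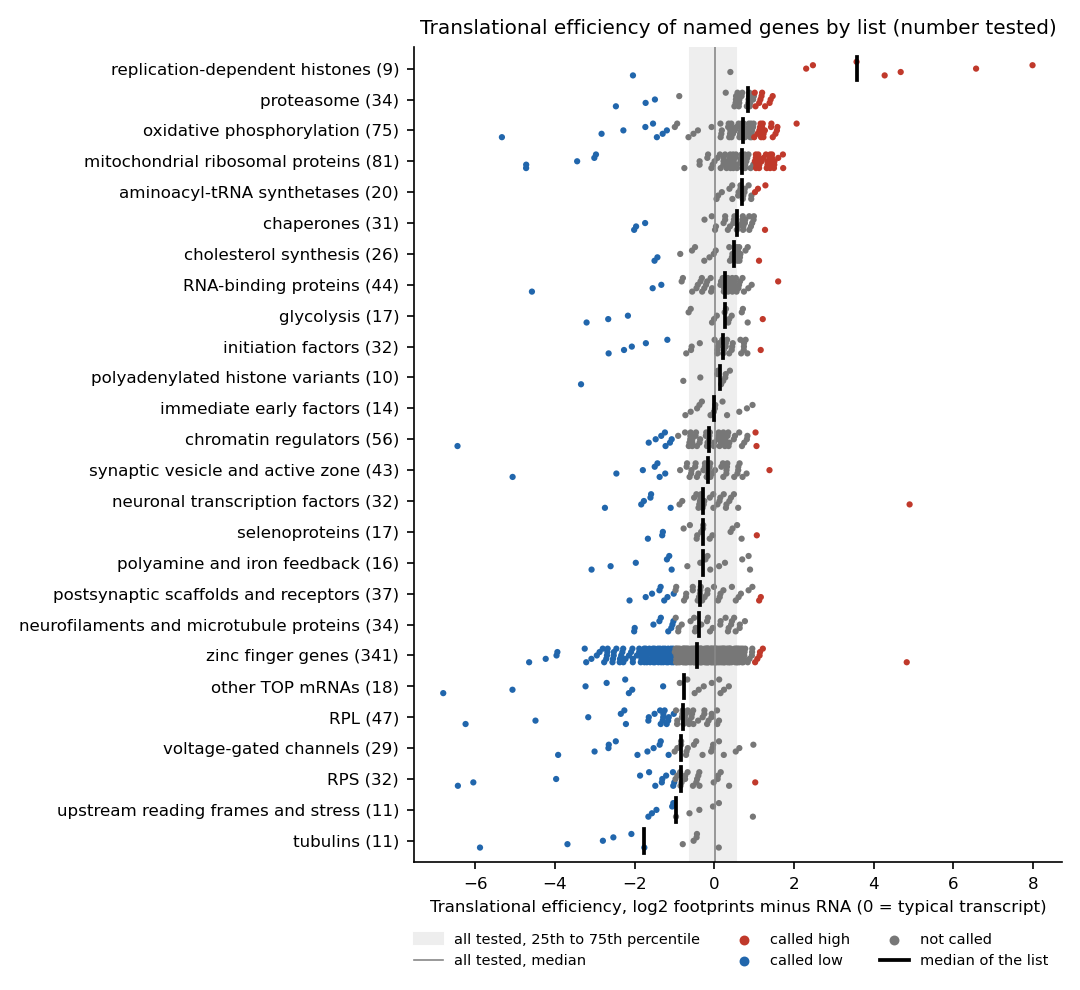
Log2 translational efficiency (x axis, 0 = typical transcript) of each tested member of 26 gene lists, ordered by median; red, called high, blue, called low, grey, not called, black bars, medians, grey band, middle range of all 13216 transcripts. Replication-dependent histones have the highest median, 3.57, and tubulins the lowest, -1.76, and single members of many lists lie far to the left.

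The lowest efficiencies were found in single genes of unrelated function. Among named transcripts NOMO3 was lowest, with 3242, 2649 and 3328 RNA counts and 10, 15 and 13 footprint counts (log2 -7.41, SE 0.12, adjusted p = 1.95e-29 by edgeR's quasi-likelihood test). Others among the 15 lowest were MAGED4 (-7.21), the splicing component SNRPD3 (-6.94), the nuclear matrix protein MATR3 (-6.89), the prolyl isomerase FKBP1A (-6.86), EEF1G, MAB21L3 (-6.74), the zinc transporter SLC39A1 (-6.58), HNRNPA1L2 (-6.45), CHD4, RPSA, RAPGEF6 (-6.42), SPECC1L (-6.36) and RPL36A. MATR3 had 689, 682 and 699.8 scaled CPM of RNA and 6.4, 4.9 and 6.3 of footprints. Of the 15, 7 had a pseudogene or readthrough record in RefSeq, a readthrough being a transcript that joins 2 neighbouring genes. Such a record was held by 1981 of all 10697 named transcripts, 18.5%, and by 61 of the 180 called low by more than 8-fold with at least 10 CPM of RNA, 33.9%. NOMO3 and MAGED4 have no such record, but each has a near-identical duplicate gene.

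Low calls were more frequent among genes with a readthrough record or 10 or more pseudogene records, and less so with 3 to 9. They were not more frequent among genes with 1 or 2 pseudogene records. The 8716 genes with no copy record had a median of 0.01 and 14.7% were called low. For genes with 10 or more pseudogene records the median was -0.73 and 38.1% of 139 were low. For the 144 genes with a readthrough record it was -1.74 and 63.9% were low. The 1279 genes with 1 or 2 pseudogene records had a median of 0.11 with 13% low, and the 455 with 3 to 9 records a median of 0.0032 with 19.6% low. The part of read assignment among matching transcripts in these values was not tested. Among the genes with no copy record, 680 were called high and 1280 low, and those at the low end besides the ones named above included NBPF15 (-5.96), NOMO2 (-5.93), F11R (-5.74), NUDT4B (-5.46), DCAF7 (-5.42) and MAD1L1 (-5.40). The records do not cover duplicated genes or families, such as NOMO2 and NOMO3 or NBPF15 and other NBPF genes. A gene with no copy record can therefore still have a close copy.

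Transcripts with 10 or more counts in every RNA library but not in every footprint library numbered 1135, of which 154 were named. EIF3C had 14390, 12448 and 14035 RNA counts and 0, 3 and 6 footprint counts, and the helicase EIF4A1 of the cap-binding complex had 11897, 10322 and 11501 RNA counts and 2, 3 and 5 footprint counts. These were the 2 listed initiation factors that did not pass the filter. DDX39B and PTP4A1 had 0 footprint counts in all 3 libraries, against 4271, 3741 and 4364 RNA counts and 3500, 3180 and 3672 RNA counts. Of the 154, 38 had a copy record. That number is a lower bound. Transcripts that themselves join neighbouring genes, such as HNRNPUL2-BSCL2 and RPL17-C18orf32, counted as without a record. So did pairs and families such as SMN1 and SMN2 or the NBPF genes. A total of 11 named genes had listed starts on both the X and Y chromosomes in RefSeq, and 10 of them had 0 footprint counts in all 3 libraries, among them SLC25A6 with 6842, 5652 and 6326 RNA counts. At the edge of the filter, the lowest of the 6 counts was exactly 10 for 83 transcripts and 9 for 90. MRPS17, just inside, had 10, 20 and 16 footprint counts and 243, 200 and 268 RNA counts, and USP49, just outside, had 9, 15 and 14 against 1452, 1187 and 1488.

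**Figure D4:**
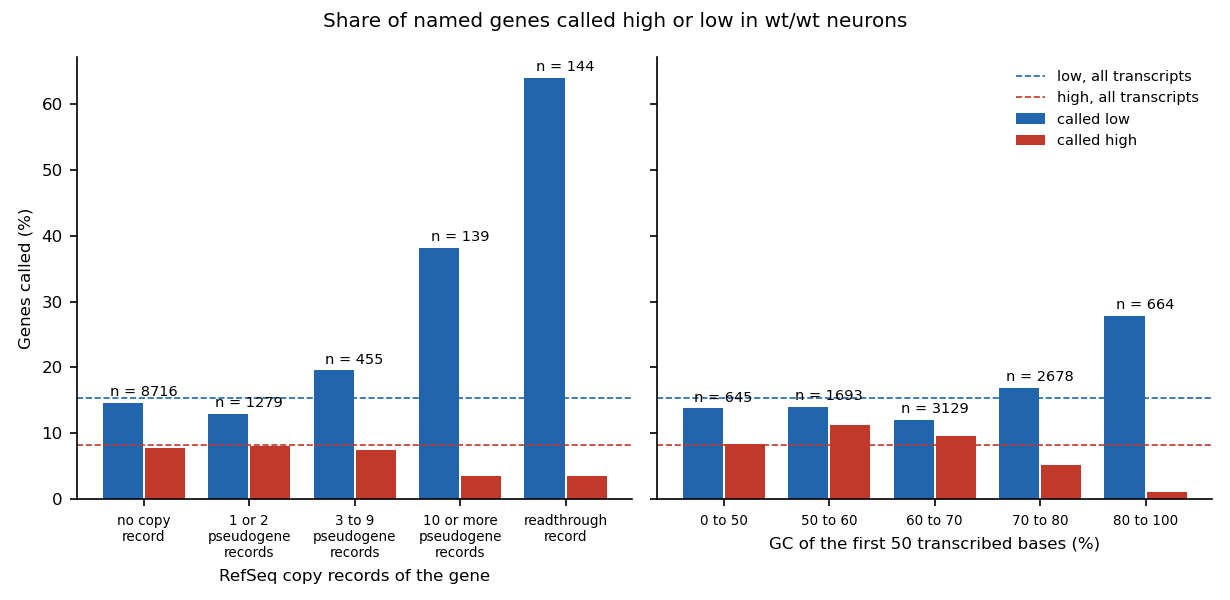
Percent of named genes called low (blue) or high (red), by RefSeq copy records (left; a gene can be in a pseudogene class and in the readthrough class) and by GC of the first 50 transcribed bases (right); dashed lines, percent of all 13216 transcripts. The low share reaches 63.9% with a readthrough record and 27.9% above 80% GC, while the high share falls to 3.47% and 1.05%.

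Sequence at the start of the transcript was compared for the 8809 named genes with a start in the RefSeq table (GRCh38.p14), 82.4% of those tested. Efficiency was lower where GC in the first 50 bases was higher, with a weak Spearman correlation of -0.16 across genes, and of -0.17 over 7118 genes with no copy record. The difference lay at the GC-rich end. Genes with 60 to 70% GC had a median of 0.14 with 12.1% low and 9.62% high, whereas the 664 genes above 80% had a median of -0.49 with 27.9% low and 1.05% high. An ATG in the first 50 bases, held by 40.7% of listed starts, made little difference: the median was 0.03 in the 2826 genes with it and 0.02 in the 5983 without. A C followed by at least 4 pyrimidines at the start, the tract of TOP mRNAs, was present in 4.04% of 27305 listed starts. Outside the ribosomal and TOP lists, 439 genes with the tract had a median of 0.06 and 8295 without it a median of 0.03. Within those lists, 53 genes with the tract had a median of -0.86 with 43.4% low. The 22 without it at the listed start had a median of -0.75 with 36.4% low. Fewer than 80% of the genes in those lists had a listed start, so no conclusion is drawn from this comparison.

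Of the tested transcripts, 2519 had no name in the files. The 12 of them with 500 or more scaled CPM of RNA were all called low, with a median of -4.0 and a range of -5.35 to -2.86. Together they made up 4.13% to 4.19% of RNA counts and 0.243% to 0.315% of footprint counts. The 2 most abundant in RNA were ENST00000361624, at a log2 value of -4.10, and ENST00000361381, at -5.35. Of 13 mitochondrially encoded genes, 0 had a name in the files, so any of them among these 12 could not be told by name. The low values of these 12 are therefore not read as low translation of nuclear genes.

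LLPH, the gene whose allele the study varied, was itself called low in wt/wt neurons. It had 29.5, 30.9 and 30.0 scaled CPM of RNA and 6.3, 7.5 and 6.7 of footprints (log2 -2.13, SE 0.10, adjusted p = 8.42e-18 by edgeR's quasi-likelihood test), and it has 3 pseudogene records.

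The same ratio in the 6 Nterm/Nterm libraries, which share no library with the wt/wt set, ranked transcripts in nearly the same order. Over 12984 transcripts tested in both, the Pearson correlation of the log2 values was 0.986 and the median absolute difference 0.084. Of 1057 transcripts high in wt/wt neurons, 875 were high in Nterm/Nterm neurons too (82.8% of the wt/wt list and 82.7% of the other), and of 1981 low in wt/wt neurons, 1787 were low in both (90.2% and 93.4%). The mean efficiencies of wt/wt neurons in the authors' deposited table, over 10721 transcripts in common, gave a Pearson correlation of 0.999977 with the log2 values used here, with a median offset of -0.16. Those means are of the same wt/wt samples, so this correlation is no independent check.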

How the data were processed

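Ribosome footprints and polyA RNA of wt/wt neurons were compared in 3 libraries each. The deposited table holds whole-number counts per transcript, not normalised by the authors. Per the submitters' processing notes, which give no roles or order, the build was GRCh37 and the tools included Salmon 1.4.0, Bowtie2 2.3.4.3, cutadapt 2.4 and UMI-tools 1.0.1, with limma and edgeR. The region counted and the treatment of multiply matching reads are not given in the sources used here. The authors' deposited table of translational efficiency holds mean ratios of footprints to RNA, their SDs and p-values of the genotype comparison; the wt/wt mean ratio and the gene names were used. A column marking lower ratios was not used.

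Counts were tested with edgeR 4.0.16 (R 4.3.3): TMM factors over 6 libraries, quasi-likelihood F test of assay, two-sided, Benjamini-Hochberg adjustment over 13216 transcripts. The SE is the log2 value divided by the square root of F. A count of 10 carries a counting error of 31.6%, a count of 100 one of 10%. No 2 replicate libraries were duplicates (chi-square per degree of freedom 2.22 to 6.78). Alternatives were DESeq2 1.42.0, limma-voom 3.58.1, other scalings, filters and thresholds, leaving out each library, a replicate block and genotypes by tag.

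Named genes are the 15 highest and 15 lowest named transcripts called with at least 10 CPM in the higher assay, the 2 highest and 2 lowest of each list, members of the stress, feedback and histone lists, and LLPH. Other genes named were chosen after their values were seen. The transcript set and the 32 gene lists were chosen with earlier results of these data known. Some genes that this rule names are not reported here. Protein length was not analysed here. Sequences and copy records are from RefSeq (GRCh38.p14). The copy records were added as a criterion after seeing the data.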

Additional observations from a re-analysis of the deposited data

How the results depend on the processing

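Counts of calls moved with scaling and thresholds as follows, against 1095 high and 2029 low. High calls were 1917 with library totals, 1913 with TMM within each assay and 561 when tested against 2-fold directly. With 100 or more counts in each library they were 670, 6.34% of a smaller set. Among 8716 named genes with no copy record, 680 were high (7.80%) and 1280 low (14.7%). These shares were near the 8.29% and 15.4% of all transcripts. With the replicate number as a block, 1084 were high and 2034 low. Same-numbered libraries correlated by 0.040, 0.082 and 0.206, not all above 0.1, so the numbers were not taken to pair the samples. Each RNA library correlated best with the footprint library of its own number, but footprint library 1 correlated better with RNA library 2 (0.068) than with RNA library 1. Leaving out 1 library gave 1016 to 1116 high and 2017 to 2098 low calls, and genotypes by the tag gave 1022 and 1983.

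Relative to the median of all transcripts, list medians moved by more than the spread between libraries when only genes with no copy record were kept: 0.62 for aminoacyl-tRNA synthetases, 0.81 for oxidative phosphorylation, 0.93 for mitochondrial ribosomal proteins, 0.36 for glycolysis, 0.47 for chaperones, -2.45 for tubulins, -0.19 for neurofilaments and microtubule proteins, 0.18 for RNA-binding proteins and -0.24 for neuron markers. The glycolysis median ran from 0.20 to 0.29 and the selenoprotein median from -0.32 to -0.29 as libraries were left out. The median difference by tract at the start, -0.08, became 0.0098 without copy records, and SRM, at -0.17, became 0.043 with library totals. The cause was not tested. Of the values of single genes under alternatives, 1630 kept their direction and side of the threshold, 17 gained a call and 12 lost one, of which 14 gains and 5 losses came with library totals; HSP90B1 (1.20), GPI (1.05), FDPS (1.05), SNCB (1.02), EIF3M (1.04) and PCNA (1.09) were among these gains. Footprint counts near 10 limit the precision of the lowest values, and RNA counts near 10 that of the highest.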
